A study of Caenorhabditis elegans with 2 samples.

Results

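The peaks described here are the sites of tagged T20F7.1 on the autosomes of Caenorhabditis elegans L4 larvae that lie between genes and away from promoters. A peak was taken when its summit lay outside every annotated protein-coding gene, was not within 500 bp upstream to 100 bp downstream of a protein-coding gene start, and was more than 250 bp from every tRNA, snoRNA, snRNA or miRNA gene. Of the 2137 autosomal peaks among the 2586 peaks that the authors retained by the irreproducible discovery rate (IDR) procedure, 465 met this rule (21.8%, 95% Wilson interval 20.1 to 23.6). Within the IDR list position alone chose them. The list itself keeps peaks by rank and by agreement between replicates, so signal values and replicate partners are given as a description, while sequence took no part in the choice. They are called intergenic peaks and are numbered from the strongest (peak 1) to the weakest (peak 465).

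T20F7.1 is annotated with a zinc finger of the C2H2 type, a fold common in DNA-binding proteins. Chromatin was immunoprecipitated with an anti-GFP antibody from whole larvae of both sexes, aged 48 hours after synchronisation by starvation of newly hatched L1 animals. All animals came from 1 transgenic strain, OP754, in which T20F7.1 carries TY1, EGFP and 3xFLAG tags at its C terminus and a wild-type unc-119 gene rescues the unc-119 (tm4063) mutation. There was 1 group of 2 biological replicates, listed as separate biosamples. No control immunoprecipitation was analysed here, whole animals mix all tissues, and what drives the transgene is not stated in the labels. All p-values below compare peaks within this group and say nothing about variation between animals.

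Transcription factors of compact genomes such as that of the worm are found mostly close to gene starts, and sites between genes can belong to distal enhancers, to unannotated transcripts or to repeated elements. Short sequence words that recur at summits show what DNA the immunoprecipitated fragments share, whether the tagged protein touches that DNA itself or stands beside another protein. Words of the form TGATAA are the core of the element recognised by GATA zinc finger factors, which in the worm are known for intestinal and epidermal gene regulation.

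The following windows, which reach 50 bp to either side of the summit, belong to the 4 strongest peaks that hold TGATAA or its reverse complement TTATCA, in capitals. They are shown because this word had the smallest p in the comparison with flanks given later.
Peak 51, chrII:2378719-2378819, forward strand: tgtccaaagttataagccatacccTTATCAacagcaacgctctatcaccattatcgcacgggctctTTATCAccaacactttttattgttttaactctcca
Peak 53, chrIV:14594376-14594476, forward strand: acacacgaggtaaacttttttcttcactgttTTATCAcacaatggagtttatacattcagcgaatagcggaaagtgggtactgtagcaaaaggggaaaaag
Peak 55, chrIV:2709753-2709853, forward strand: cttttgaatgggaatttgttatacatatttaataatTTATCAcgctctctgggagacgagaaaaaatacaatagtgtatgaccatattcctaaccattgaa
Peak 61, chrII:7528402-7528502, forward strand: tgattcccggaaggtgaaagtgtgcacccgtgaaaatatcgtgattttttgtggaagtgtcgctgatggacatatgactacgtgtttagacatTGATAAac

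Peak 51 lies between F16G10.6 and F16G10.7 and has a pair of TTATCA matches. Peak 53 lies 13387 bp upstream of irld-18, the longest distance from a gene start in the set, in a gap that ends at dmd-6, a DM-domain gene. Peak 55 lies 2565 bp upstream of ubc-8, a ubiquitin-conjugating enzyme gene, and peak 61 lies 1191 bp upstream of ZK1290.5, just past the end of the ribonuclease H gene rnh-1.1. Their signal values in replicates 1 and 2 were 115 and 147 for peak 51, 158 and 104 for peak 53, 118 and 152 for peak 55, and 123 and 118 for peak 61. The replicate that was higher was not the same one in all 4.

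The strongest intergenic peaks look different. In the windows of peaks 1 to 5, capitals mark the words ACGCGC, then ACGCAG, and also ACTCCG, or their reverse complements, which are compared with promoter peaks below.
Peak 1, chrII:8041783-8041883, forward strand: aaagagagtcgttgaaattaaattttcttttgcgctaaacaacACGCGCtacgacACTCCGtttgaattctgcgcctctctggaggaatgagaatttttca
Peak 2, chrV:1151455-1151555, forward strand: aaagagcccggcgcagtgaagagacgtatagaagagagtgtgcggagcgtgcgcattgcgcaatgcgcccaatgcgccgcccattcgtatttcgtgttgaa
Peak 3, chrIII:4899871-4899971, forward strand: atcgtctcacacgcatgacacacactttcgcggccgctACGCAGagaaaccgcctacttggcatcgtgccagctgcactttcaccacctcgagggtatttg
Peak 4, chrIV:10425261-10425361, forward strand: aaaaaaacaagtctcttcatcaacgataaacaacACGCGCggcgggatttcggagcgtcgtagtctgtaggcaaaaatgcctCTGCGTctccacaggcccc
Peak 5, chrIV:9260470-9260570, forward strand: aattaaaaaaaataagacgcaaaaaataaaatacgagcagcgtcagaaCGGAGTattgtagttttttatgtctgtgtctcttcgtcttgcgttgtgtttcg

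Peak 1 had a pooled signal value of 1056.9, with 527 and 533 in replicates 1 and 2. It lies between algn-6, which encodes a glucosyltransferase of N-glycan synthesis, and T05H10.1, 756 bp upstream of the latter. Peak 2 (994; 467 and 527) lies inside linc-128, an annotated long intergenic RNA, 4766 bp upstream of the calmodulin gene cmd-1, and holds none of the 3 marked words. Peak 3 (942; 465 and 483) lies between the divergent genes nhl-2 and tag-340 and inside the non-coding gene F26F4.14. Peak 4 (902; 454 and 440) lies 676 bp upstream of F13B12.1, and peak 5 (857; 438 and 422) lies between Y11D7A.10 and the collagen gene col-120. The replicates differed little at these 5 peaks and neither was always the higher.

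Position came next. The rule holds for 23.1 Mb, or 28% of autosomal sequence, so intergenic peaks occurred at 20.1 per Mb against 108 per Mb in promoter windows, 14.7 in introns, 7.84 in exons and 25.9 over all autosomes. Before IDR the pooled list had 7357 autosomal candidate regions that met the rule. Over all autosomal candidates 9.31% were in the IDR list. The share was 6.32% (5.79 to 6.9) for intergenic candidates, above the 5.21% (4.74 to 5.73) of introns and below the 23.6% (22.4 to 24.9) of promoters.

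Intergenic peaks thinned out with distance upstream of gene starts. Measured upstream to the next gene start, they numbered 34.5 per Mb up to 750 bp (73 peaks), between 24.4 and 27.3 per Mb from there to 3000 bp, and 14.1 per Mb at 3000 to 5000 bp. Beyond 5000 bp they fell to 10.3 per Mb (66 peaks). The median distance to the nearest gene start was 1559 bp (quartiles 933 and 2687), and the flanking genes were 3981 bp apart in the median, against 6364 bp over all bases that met the rule. Median signal values were between 121 and 145 in all 7 distance classes, without an order by distance. Genes in tandem flanked 294 peaks (63.2%, for 54.3% of the sequence), divergent genes 121 (26%, for 30.8%) and convergent genes 50 (10.8%, for 14.8%).

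**Figure D1:**
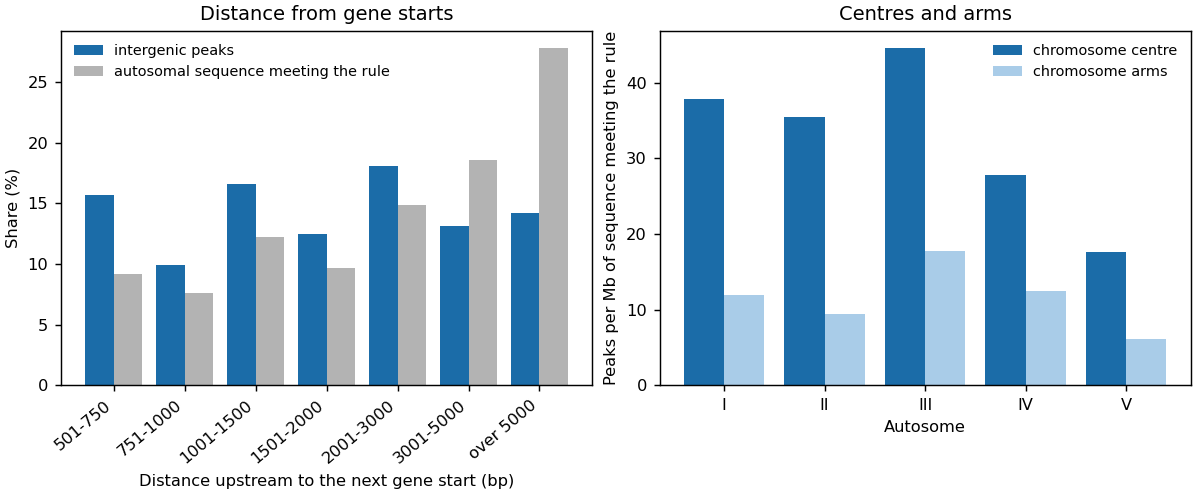
Left, the share (%) of the 465 intergenic peaks and of the autosomal sequence meeting the rule, by distance upstream to the next gene start in bp. Right, intergenic peaks per Mb of such sequence in the centre and the arms of each autosome; peaks exceed their share of sequence up to 3000 bp and fall below it beyond, and every centre is denser than its arms.

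Chromosome centres, from 25 to 75% of the length, held 333 intergenic peaks (30.4 per Mb) and the arms 132 (10.8 per Mb). The ratio of 2.81 was close to the 2.97 of promoter peaks. Among autosomes, density ran from 11.6 per Mb on V through 19.1 on IV, 22.1 on II and 24.1 on I to 31.4 on III, and it was higher in the centre on each of the 5.

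Values on either side of the rule's limits are given without a test. The 27 peaks at 500 to 600 bp upstream of a start had a median signal value of 130 (quartiles 111 and 237), and the 62 peaks excluded at 400 to 500 bp had 145 (111 and 355), with a maximum of 4337.7. Only 4 intergenic peaks lay 250 to 500 bp from a tRNA, snoRNA, snRNA or miRNA gene, with a median of 111, and 6 excluded peaks lay at 125 to 250 bp, with a median of 112. The 49 peaks within 125 bp of such a gene were stronger, with a median of 179.

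Some intergenic summits lay in annotated genes that do not code for protein. Genes of the classes ncRNA, long intergenic RNA, antisense RNA, piRNA, rRNA and pseudogene together held 34 summits (7.31%, 5.28 to 10). They made up 13.8% of the sequence, and the classes differed. Genes of the Ensembl class ncRNA, short non-coding transcripts of mostly unknown role, held 22 summits (4.73%, 3.14 to 7.06) for 1.32% of the sequence, and 46 summits (9.89%, 7.5 to 12.9) lay in the start windows of such genes, for 4.6% of the sequence. Pseudogenes showed the opposite, with 5 summits (1.08%, 0.46 to 2.49) for 11.2% of the sequence. Long intergenic RNA genes held 7 (1.51%, 0.731 to 3.07, for 0.727%). Start windows of piRNA genes held 16 summits (3.44%, 2.13 to 5.52, for 8.21%). The part of chromosome arms and of read mapping in these shares was not tested.

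The genes on either side were 748 of 17242 autosomal protein-coding genes (4.34%). Among classes fixed by gene name, nuclear hormone receptor genes (ligand-regulated transcription factors) flanked intergenic peaks most often, with 23 of 246 (9.35%), among them nhr-10, nhr-19, nhr-31 and nhr-88. The uncoordinated genes followed with 6 of 78 (7.69%), then mitochondrial ribosomal protein genes with 5 of 70 (7.14%). Cuticle genes, with 8 of 161 (4.97%), and neuropeptide genes, with 5 of 106 (4.72%), were near the share of all genes. Chemoreceptor genes were at 12 of 1276 (0.94%), F-box, MATH and BTB genes at 4 of 378 (1.06%) and C-type lectin genes at 3 of 237 (1.27%). These shares were not tested. Gap length was not measured by class, and the part of gap length and of chromosome arms in them was not tested.

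The gene whose start lay next downstream had a promoter peak of its own at 63 intergenic peaks (13.5%, 10.7 to 17). Of all autosomal protein-coding genes 7.55% had one. The first is a share of peaks and the second a share of genes. Intergenic peaks had 398 genes next downstream, 58 of them next downstream of 2 or more peaks. The part of chromosome centres and arms was not tested. The nearest other IDR peak was a median of 3617 bp away, 80 peaks (17.2%) had one within 1 kb and 255 (54.8%, 50.3 to 59.3) within 5 kb. At 79 intergenic peaks (17%) the nearest one lay within 5 kb and was a promoter peak. Close pairs did occur: the regions of 55 intergenic peaks (11.8%) overlapped another IDR region, 50 of them that of another intergenic peak and 3 that of a promoter peak. Such overlapping peaks share fragments and are not independent sites. The most crowded places were the gap between mstr-1 and nars-1 (an asparaginyl-tRNA synthetase gene), where peaks 99 and 453 each had 5 other IDR peaks within 5 kb, and the gaps beside mai-2, idh-1 and emb-8, where peaks 36, 154 and 155 each had 4.

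The signal value is the one the authors deposited for each region, on a scale that is not stated. Intergenic peaks had values from 95.7 to 1056.9 with a median of 135 (quartiles 110 and 182), autosomal promoter peaks a median of 179 (122 and 363) and intron peaks 125 (106 and 173). None was among the 100 strongest IDR peaks, and the strongest ranked 105. The stronger 50% of IDR peaks included 44.1% of intergenic peaks, 63.2% of promoter peaks and 37% of intron peaks. The difference was -19.1 percentage points from promoter peaks (95% Newcombe interval -24.4 to -13.7) and 7.09 points from intron peaks (0.518 to 13.5). The authors' deposited list gave 168 intergenic peaks (36.1%) and 59.7% of promoter peaks a −log10 q-value of 2 or more.

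Both replicates had a summit within 100 bp among their 2586 strongest regions at 285 intergenic peaks (61.3%, 56.8 to 65.6). The share was 73.7% for promoter peaks (difference -12.4 points, -17.6 to -7.27) and 55.5% for intron peaks (5.79 points, -0.787 to 12.3). Within the weaker 50% of peaks the shares were 36.5% (30.9 to 42.5) for intergenic and 33.9% (29.4 to 38.8) for promoter peaks, and within the stronger 50% they were 92.7% (88.3 to 95.5) and 96.8% (95.2 to 97.9). The difference was 2.6 points (95% Newcombe interval -4.85 to 10.1) in the weaker and -4.13 points (-8.66 to -0.853) in the stronger 50%. Only 21 intergenic peaks had a partner in neither strongest list, and 427 (91.8%) had partners in both when all 30000 candidates were used. At those 427 the signal value of replicate 2 over that of replicate 1, on the log2 scale, was 0.06 in the median, with quartiles at -0.27 and 0.33 (SD 0.48).

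**Figure D2:**
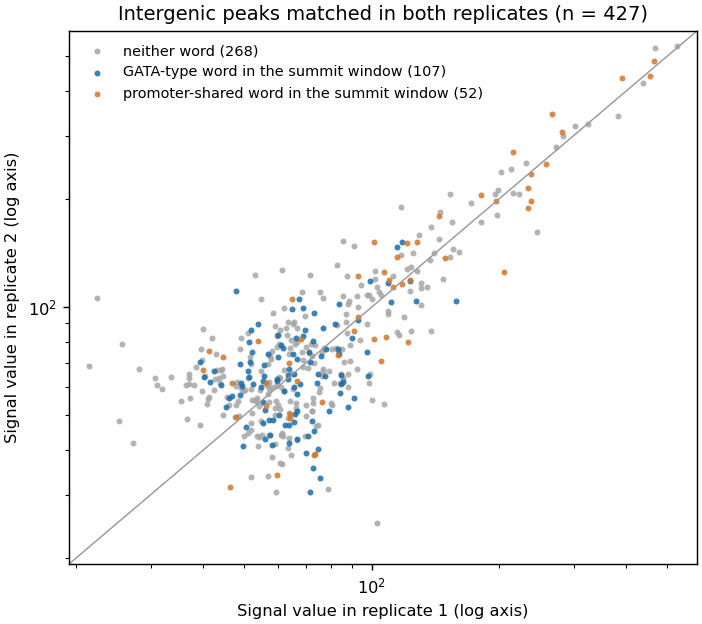
Signal value of the 427 intergenic peaks with a summit within 100 bp in both replicates, replicate 1 against replicate 2 on log axes, with the line of equal values. Blue points hold the GATA-type word, orange points the promoter-shared word without it, and grey points neither (words as defined in the text); the strongest peaks lie near the line and none of them is blue.

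The 20 strongest intergenic peaks had signal values from 443 to 1056.9 and ranks from 105 to 300. Each had a partner in both strongest lists, with values of 202 to 527 in replicate 1 and 214 to 533 in replicate 2. Of them 13 lay between tandem, 5 between divergent and 2 between convergent genes, and 3 lay in annotated non-coding genes. Their neighbours had varied roles. Peak 7 (726) lies 864 bp upstream of cbp-1, the CBP/p300 acetyltransferase gene, peak 10 (606) lies 602 bp upstream of rpa-2, a subunit gene of the single-stranded DNA-binding complex RPA, and peak 15 (496) lies 3155 bp upstream of fos-1, a bZIP factor gene. Peak 12 (582) lies between the ABC transporter gene haf-2 and insc-1, peak 14 (519) beside the neuropeptide gene nlp-40, peak 16 (493) 558 bp upstream of the actin-related gene arp-1, peak 18 (452) 2964 bp upstream of the cadherin gene cdh-5, and peak 19 (450) between Y38C1BA.1 and the synapsin gene snn-1. Peak 8 (657) lies between the convergent genes npl-4.1 and F59E12.8, peak 9 (632) lies 677 bp upstream of F13D12.3, peak 17 (470) lies between F58D12.1 and F58D12.3, and peak 20 (443) lies 1947 bp upstream of sup-26, an RNA-binding protein gene. Peaks 6, 11 and 13 (825, 597 and 559) all lie in the gap between K08F11.1 and fbxb-78, and the regions of peaks 11 and 13 overlap.

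Sequence words were then compared between the summit window and a flank of the same length centred 350 bp upstream in genome coordinates. All words of 6 letters were tried, each counted together with its reverse complement, so on both strands. An exact binomial test was made over those peaks in which only summit or only flank had the word, with Benjamini-Hochberg adjustment at 0.05. At intergenic summits 34 words (1.63%) were more frequent than in flanks and 31 (1.49%) less frequent. TGATAA had the smallest p with this flank. It occurred in 112 summits (24.1%, 20.4 to 28.2) and in 9.03% of flanks (adjusted exact p = 1.36e-06), and in 9.18% of all windows of that length that met the position rule. CTTATC, which overlaps it as the run TGATAAG read on the other strand, stood at 15.9% against 4.09% (adjusted exact p = 1.36e-06). The base after TGATAA was G at 45.5% of matches, against 17.4% in all windows under the rule. Of 32896 words of 8 letters only TCTTATCA was called (0.00304% of words), with 33 summits (7.1%) against 0.86% of flanks (adjusted exact p = 0.0357). The next 4 words of 8 letters did not pass: AGACGCAG at 7.53% against 1.72%, AAAAAATT at 4.3% against 11.8%, ACTGATAA at 4.73% against 0.43% and GACGCAGA at 6.67% against 1.51%.

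A purine-rich and a CG-containing group made up the other leading words. AGAGAA stood at 28.2% of summits against 11.8% of flanks (adjusted exact p = 1.36e-06), TAGAGA at 15.7% against 5.38% and CTCTTC at 14.2% against 4.73%. CGTCTC (14.6% against 3.87%), AGAGAC (15.7% against 4.73%), ACGCAG (12.5% against 3.44%) and CGCAGA (11% against 3.23%) can overlap one another in a single run. All 6 had adjusted exact p-values of 0.000705 or less. AAAATC was less frequent at summits, with 13.3% against 25.8% (adjusted exact p = 0.000705). Base composition moved with these words: GC content averaged 38.5% at summits and 34.8% in flanks, and its part in the word counts was not tested. The same test called 261 words (12.5%) higher at the 1041 promoter summits and 15 (0.721%) at the 400 intron summits. Of the 34 intergenic words, 25 were among the 261 and 10 among the 15.

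The test between intergenic and promoter peaks, a two-sided Fisher exact test for each word with the same adjustment, found 59 words (2.84%) more frequent at intergenic summits and 88 (4.23%) less frequent. TGATAA was at 24.1% against 12.2% of promoter summits (adjusted Fisher exact p = 9.54e-06) and CTTATC at 15.9% against 7.01% (adjusted Fisher exact p = 5.45e-05). Intron summits had TGATAA at 25%, and the interval of the difference from intergenic summits ran from -6.69 to 4.8 percentage points. They had ACGCAG at 7% (intergenic minus intron 5.47 points, 1.49 to 9.4) and ACGCGC at 6% (-2.34 points, -5.43 to 0.527). AGAGAA was at 28.2% against 16.5% (adjusted Fisher exact p = 6.46e-05). ACGCAG, at 12.5% against 11.3%, did not pass (adjusted Fisher exact p = 0.877). Among words less frequent than at promoters, ACGCGC was at 3.66% against 14.8% (adjusted Fisher exact p = 2.02e-08), TAAACA at 8.82% against 20.7%, GCGTCA at 1.94% against 9.41% and ACTCCG at 3.44% against 11.8%. CGACAC (3.44% against 11.8%), ACGACA (4.09% against 12.8%), CACTCC (3.44% against 11.3%) and CAACGA (4.3% against 12.7%) completed the leading words. Without soft-masked bases in the intergenic window (137 peaks) 4 of the 8 no longer passed: ACTCCG (adjusted Fisher exact p = 0.15), CGACAC (0.219), ACGACA (0.771) and the word CACTCC (0.479). Against flanks none of these 8 was called in intergenic peaks (adjusted exact p of 0.421 or more). In the weaker 50% of IDR peaks TGATAA was at 29.2% of intergenic and 18.8% of promoter summits and no longer passed (adjusted Fisher exact p = 0.399), and ACGCGC was at 1.54% and 7.31% (adjusted Fisher exact p = 0.355).

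**Figure D3:**
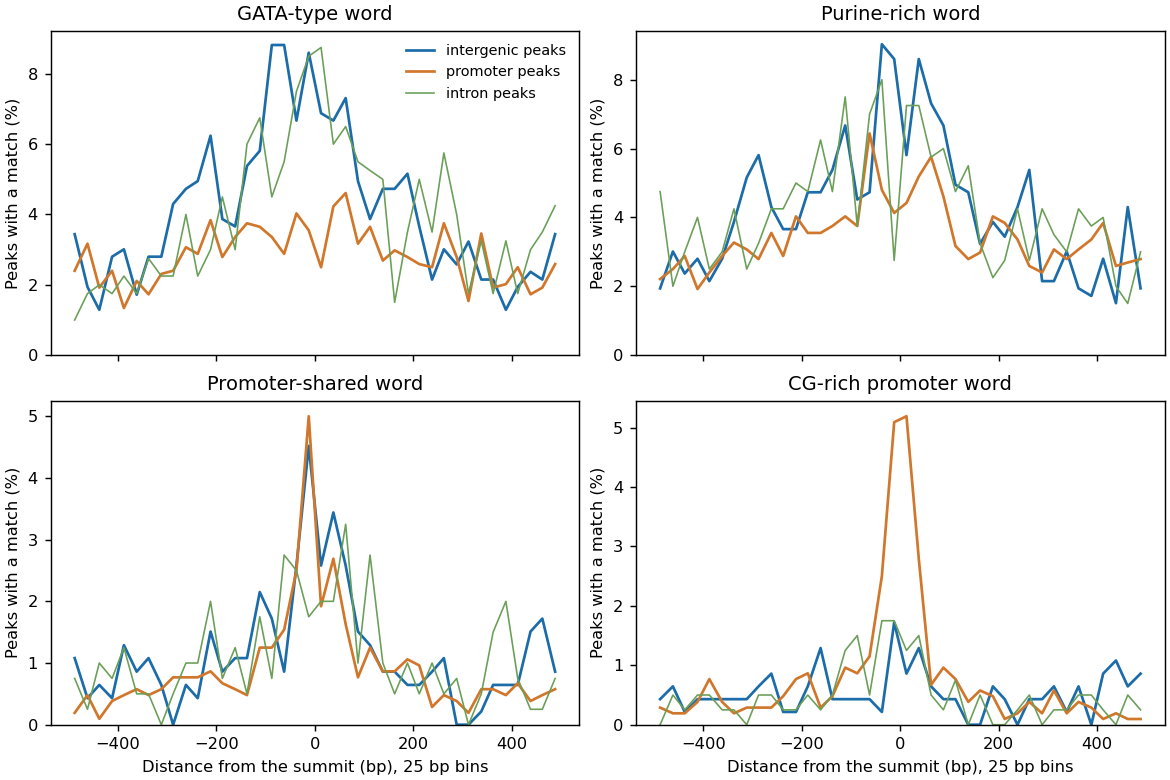
Share (%) of intergenic, promoter and intron peaks with a word match in each 25 bp bin, by distance from the summit in bp. The GATA-type word (TGATAA) rises over a broad stretch around intergenic and intron summits. The promoter-shared word (ACGCAG) rises narrowly at intergenic and promoter summits, and the CG-rich word (ACGCGC) narrowly at promoter summits. Intron summit windows held ACGCAG at 7% (flanks 2.25%) and ACGCGC at 6% (flanks 1%). AGAGAA is the purine-rich word.

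TGATAA was found in peaks of moderate rather than high signal. From the strongest to the weakest 25% of intergenic peaks it occurred in 6.9% (3.54 to 13), 32.8% (24.9 to 41.7), 31.9% (24.1 to 40.8) and 24.8% (17.8 to 33.3) of summits, and it was absent from the 20 strongest. In promoter peaks the order was 6.54%, 8.46%, 14.2% and 19.5%. These groups were cut within each class and do not match in signal value. The strongest 25% began at 182 in intergenic and at 363 in promoter peaks. The next 25% ran from 135 to 182 in intergenic and from 179 to 363 in promoter peaks. Below the IDR list it was at 22.2% (19 to 25.8) in the intergenic candidates of ranks 2587 to 5172, where flanks had 10.7%, and at 12.2% in ranks 10345 to 30000, where flanks had 10.1%. Promoter candidates of ranks 2587 to 5172 were at 22.8%. ACGCAG was most frequent in the strongest 25% of intergenic peaks, with 26.7% (19.5 to 35.4), and had 5.17%, 12.1% and 5.98% in the others. At promoter summits it was at 10.8% (7.56 to 15.1), 17.7% (13.5 to 22.8), 11.2% and 5.75%, and the first 2 intervals overlapped. The promoter group at 17.7% had a median signal value of 237, against 257 in the strongest 25% of intergenic peaks. AGAGAA was at 40.5% (32 to 49.6) in the strongest 25% and between 22.2% and 27.6% in the rest. ACGCGC was at 8.62% (4.75 to 15.1) in the strongest 25% of intergenic peaks, where flanks had 0%. In the others it was at 3.45%, 2.59% and 0%, and in promoter peaks the order was 26.2%, 15.8%, 10.4% and 6.9%. These groups were compared by their intervals and not by a test.

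**Figure D4:**
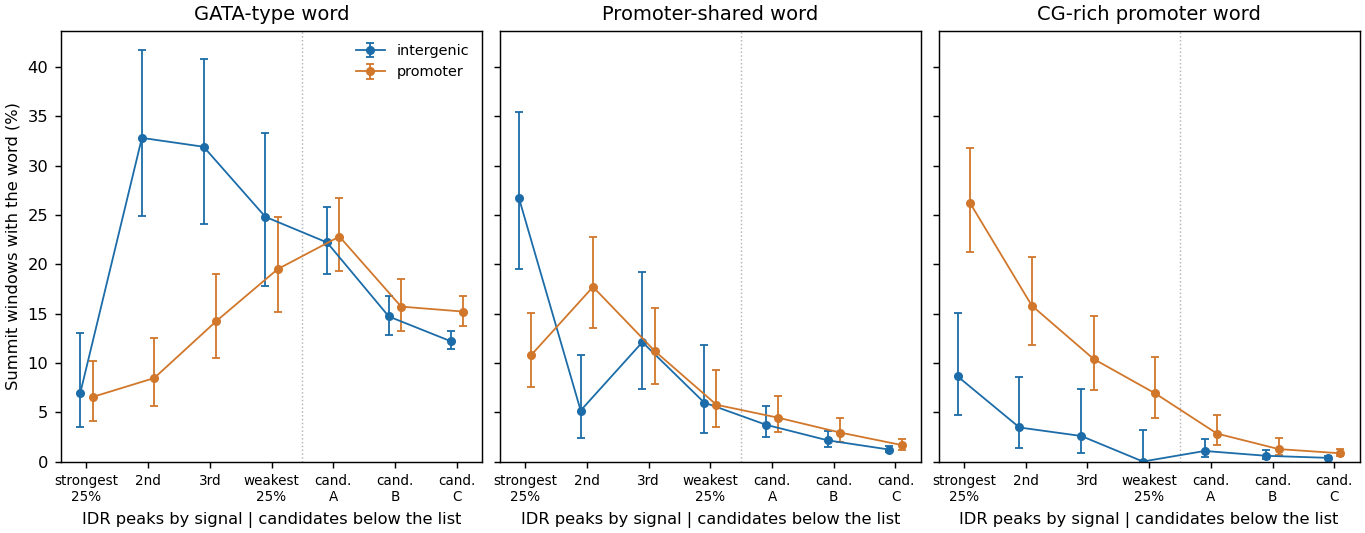
Share (%) of summit windows that hold the GATA-type, promoter-shared or CG-rich word in intergenic (blue) and promoter (orange) peaks, in 4 groups of equal size by signal value and, right of the dotted line, in pooled candidates of ranks 2587 to 5172 (A), 5173 to 10344 (B) and 10345 to 30000 (C); bars are 95% Wilson intervals. The GATA-type word is at 6.9% in the strongest 25% of intergenic peaks and 32.8% in the next. The 4 groups were cut within each class, so blue and orange points at the same place differ in signal value.

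TGATAA and the word ACGCAG were rarely together: 109 summits held only the former, 55 only the latter and 3 both. None of these 2, AGAGAA or the word ACGCGC was found at 203 summits (43.7%). Peaks with TGATAA had a median signal value of 128 and a maximum of 269, and lay a median of 2353 bp upstream of the next gene start. Peaks with ACGCAG had a median of 188 and a maximum of 942, and lay 1431.5 bp upstream. TGATAA stood at 13.4% (8.45 to 20.7) of summits up to 1000 bp upstream and at 28.9% (23.2 to 35.4) beyond 2000 bp. Both strongest lists held a partner for 59.8% (50.6 to 68.4) of the peaks with TGATAA and for 53.2% (46.3 to 59.9) of those with none of the 4 words. In the intergenic regions of each replicate alone, TGATAA was at 26.6% (flank 9.66%) in replicate 1 and at 20.2% (flank 8.11%) in replicate 2. The share varied little among autosomes (23% to 24.7%) and between neighbours in divergent (25.6%), tandem (22.8%) and convergent (28%) order.

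Repeated sequence was less common at intergenic summits than around them. Soft-masked bases, which mark repeats and low-complexity sequence in the reference, made up 24.8% of summit windows, 37.1% of their flanks and 41.4% of all windows under the rule. Promoter summits (28.7%) and intron summits (26.2%) were near the intergenic value. Another copy in the genome, of at least 80% identity over at least 50% of a 201 bp window at the summit, existed for 28 peaks (6.02%, 4.2 to 8.57). The share was 3.55% for promoter peaks (difference 2.47 points, 0.225 to 5.19), 10% for intron peaks (-3.98 points, -7.78 to -0.363) and 30.1% (28.2 to 32) for windows taken every 10000 bp under the rule. How reads in repeats were mapped is not stated, and its part in the low share was not tested. The 24 peaks with 1 to 9 other copies had a median signal value of 174, against 133 for the 437 with none, and 1 of the 24 held TGATAA.

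Of the peaks with copies, 12 resembled one another and fell into 4 families. The largest has 4 peaks, at chromosomes II and IV, with 8 other copies each. Their windows share an unbroken run of 20 bp, given in capitals, on either strand.
Peak 29, chrIV:3313508-3313608, forward strand: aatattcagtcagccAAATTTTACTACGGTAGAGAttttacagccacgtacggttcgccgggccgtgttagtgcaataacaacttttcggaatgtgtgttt
Peak 38, chrII:4048026-4048126, forward strand: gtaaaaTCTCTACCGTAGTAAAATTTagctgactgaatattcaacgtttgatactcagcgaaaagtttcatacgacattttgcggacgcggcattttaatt
Peak 184, chrIV:15530749-15530849, forward strand: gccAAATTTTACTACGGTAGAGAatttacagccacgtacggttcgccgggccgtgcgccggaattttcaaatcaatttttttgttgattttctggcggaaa
Peak 190, chrIV:9196360-9196460, forward strand: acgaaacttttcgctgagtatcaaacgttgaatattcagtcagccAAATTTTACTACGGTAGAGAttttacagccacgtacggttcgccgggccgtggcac

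Peak 29 (399) lies 369 bp past the end of the bZIP gene zip-11, peak 38 (314) upstream of K07D4.2, peak 184 (149) upstream of ari-1.4, and peak 190 (147) 3693 bp upstream of the kinase gene wnk-1. Replicate values were 155 and 172 for peak 38, 68.8 and 71 for peak 184, and 85.4 and 63.3 for peak 190, while peak 29 had no summit within 100 bp in the replicates. Peaks 38, 184 and 190 each overlap a weaker or stronger intergenic peak 218 to 246 bp away, and those neighbours form the family of 3 at the same places. A second family joins peak 10 beside rpa-2 and peak 11 beside K08F11.1 with a peak on IV, with 7 other copies each. No peak of the 4 families held TGATAA.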

How the data were processed

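The authors deposited 4 peak lists on ce11, which is the WBcel235 sequence: 30000 candidate regions for each replicate and for the pooled replicates, and the 2586 pooled peaks kept by IDR, per the labels and the text deposited beside the lists. The signal value and the −log10 q-value of each region are the authors', as deposited. Aligner, peak caller, versions and scale are not named in the labels or lists. The lists hold no read counts, so depth is unknown and intervals cover the sampling of peaks only. Labels give the same replicate numbers to a single group, so nothing was paired.

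Genes came from Ensembl release 115, soft-masking from the RefSeq sequence, and sequences from that RefSeq genome of the same build. Chromosome lengths were checked against it. A summit is the region start plus the offset. Summits in several classes were placed by priority: promoter, exon, intron, RNA gene, intergenic. Copies were found with blastn 2.17.0 (E-value at most 1e-05). Shares carry Wilson and differences Newcombe 95% intervals. The word tests were tested on simulated data made from shuffled flank windows. Such windows lack the difference in GC content between summits and flanks, so the simulation does not cover it. Peaks and lists were chosen with earlier results of these data known. Named items are the 20 strongest peaks, those beside the limits of the rule, the 10 words of 6 letters and 5 of 8 with the smallest p against flanks, the 10 with the smallest p against promoter peaks, and the 5 most crowded peaks. Peak 29 and the families were named after their values were seen, as were the comparisons by signal group. Alternatives were other promoter and RNA gene distances, transcript starts, midpoints, match distances, windows, flanks, strengths, unmasked windows and single replicates. Python 3.11.15, numpy 2.4.6, pandas 2.3.3, scipy 1.17.1 and matplotlib 3.10.9 were used.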

Additional observations from a re-analysis of the deposited data

Results flagged for a closer look

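The X chromosome, which the rule leaves out, had 146 peaks at positions that otherwise met it, and 2 of 4 words tested there were more frequent at summits than in flanks. TGATAA was in 26 summits (17.8%, 12.5 to 24.8) against 5.48% of flanks (exact binomial test, adjusted p = 0.00841), and at X promoter summits it was at 16.3%. AGAGAA was also in 26 summits (17.8%, 12.5 to 24.8), against 8.22% of flanks (exact binomial test, adjusted p = 0.0251). ACGCAG, with 4.11% against 1.37% (adjusted exact p = 0.385), and ACGCGC, with 3.42% against 1.37% (adjusted exact p = 0.453), did not pass. Adjustment was over these 4 words.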

How the results depend on the processing

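The share of autosomal IDR peaks that are intergenic was 34.9% with a promoter window of 250 bp upstream to 50 bp downstream, 16.2% with 1000 and 200 bp, and 18.7% in the stronger 50% of peaks. Under the other settings, transcript starts, RNA gene distances of 100 and 500 bp, midpoints and single replicates, it was 21.3% to 22%. The share with partners in both replicates was 49% within 50 bp, 66% within 200 bp, 91.8% among all candidates and 92.7% in the stronger 50%.

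Against flanks, 34 words were called higher and 31 lower. The counts were 51 and 43 with the flank 350 bp downstream and 44 and 22 with the flank 700 bp upstream, so they depend on the flank. They were 15 and 14 with 61 bp windows, 15 and 13 in the stronger 50%, and 10 and 26 without soft-masked bases (137 peaks). They were 3 and 1 in the weaker 50%, and 29 and 19 for peaks whose region overlaps no other. Words of 8 letters gave 1 and 0. Of these 32896 words, 140 were higher and 150 lower at an unadjusted exact binomial p under 0.05. The intergenic regions of a single replicate (466 in replicate 1, 456 in replicate 2), used in place of the IDR peaks, gave 33 to 43 higher and 14 to 26 lower. Against promoter peaks, 59 were higher and 88 lower. The counts were 25 and 61 with 61 bp windows, 29 and 36 in the stronger 50%, and 22 and 31 without soft-masked bases. In the weaker 50% they were 0 and 2, with 71 and 62 at an unadjusted Fisher exact p under 0.05. The regions of a single replicate, used in place of the IDR peaks, gave 40 to 54 higher and 70 to 95 lower. The stronger and weaker 50% and the unmasked windows hold fewer peaks, and other causes were not tested. The weaker 50%, peaks without copies and peaks without overlap were chosen after seeing the data.

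For the named words, 84 of 100 alternatives against flanks and 66 of 80 against promoter peaks kept direction and call, and 16 and 12 kept direction only. TGATAA lost its call against flanks in the stronger 50% (8.78 points, adjusted exact p = 0.234; range over alternatives 2.24e-08 to 0.234) and against promoter peaks in the weaker 50% (10.4 points, adjusted exact p = 0.399; range 3.77e-10 to 0.399). Which word led depended on the flank. With the flank 350 bp downstream the adjusted exact p was 2.39e-12 for AGAGAA and 2.24e-08 for TGATAA. With the flank 700 bp upstream it was 3.43e-09 for AGAGAA and 5.23e-05 for TGATAA. In the weaker 50%, CACTCC and CAACGA changed sign against promoter peaks, to 0.988 and 0.191 points. No paired analysis was possible because there is 1 group.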
